A study of Mus musculus with 18 samples.

Results

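The loci described here are those of 10 transcription factor genes of the naive pluripotent state, Klf2, Klf4, Klf5, Esrrb, Tfcp2l1, Tbx3, Zfp42, Prdm14, Sall4 and Nr0b1. Each locus is the annotated gene with 100 kb on either side, in mouse build mm10 (GRCm38), and every accessible peak that overlapped it by at least 1 bp was taken. The members are 10 of 21774 protein-coding genes, and their loci held 362 of the 166066 peaks of the study. No 2 of these loci shared a peak.

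Accessible chromatin was measured by ATAC-seq, in which a transposase cuts open DNA and tags it for sequencing, in a line of mouse embryonic stem cells called dTKO, grown in medium with serum and LIF. All 18 libraries share 1 genotype, Suv39h1fl/fl ; Suv39h2-/- ; Setdb1fl/fl, which concerns 3 methyltransferases of histone H3 lysine 9, and all are labelled + auxin + dTAG13 (100 µg/ml and 0.5 µM), agents that trigger the degradation of suitably tagged proteins. Samples were taken at 6 times (0, 3, 6, 12, 24 and 48 h), 3 repeats a time, with 0 h as the stated baseline, and the deletion of Suv39h2 is present at 0 h as well. Neither the tagged protein nor the clonality of the line is named in the labels. The values are positions in 1 peak list merged over all libraries, with no library, count or height, so depth per sample is unknown, the values carry no replicate error, no test between times was made, and change after 0 h was not analysed here. A peak in the list may come from any of the 6 times. Because the rule of merging is not given, a wide peak may join narrower peaks of different libraries, so widths are those of merged peaks.

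In embryonic stem cells these factors sustain self-renewal together with the core factors encoded by Pou5f1, Nanog and Sox2, and most of them are switched off when the cells leave the naive state. The cytokine LIF feeds into the network through STAT3, which drives genes such as Klf4 and Tfcp2l1. Naive factor genes are known to be controlled by distal enhancers as well as by promoters, so both the gene ends and the surrounding DNA are of interest. The marker genes of the labelled cell type were open: Pou5f1, Nanog and Sox2 each had a peak within 500 bp of an annotated end, of 2567, 1664 and 2470 bp. Such a peak was also found at 3 of 7 fibroblast genes (Col1a1, Col1a2 and Thy1, but not Col3a1, Pdgfra, Postn or Lum). It was found at 4 of 6 endoderm genes (all but Gata4 and Afp) and at 71.4% of all protein-coding genes. An open end alone therefore does not tell cell types apart.

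All 10 members had a peak within 500 bp of an annotated end, against 71.4% of all protein-coding genes. In 9 of them the peak lay over the end itself, and in Esrrb it began 58 bp inside the gene. The share of all protein-coding genes with a peak over the end itself was not counted. A merged peak of at least 1000 bp was found at the ends of 8 members (54.8% of protein-coding genes), with Esrrb and Zfp42 as the exceptions. One of at least 2000 bp was found at Prdm14 and Sall4 (8.42%). The median of the widest end peak was 1439 bp in the members and 1326 bp in the 15550 protein-coding genes that had one, and 5 of the 10 members lay above that median. The widths ran from 304 bp at Esrrb to 2743 bp at Sall4.

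**Figure D1:**
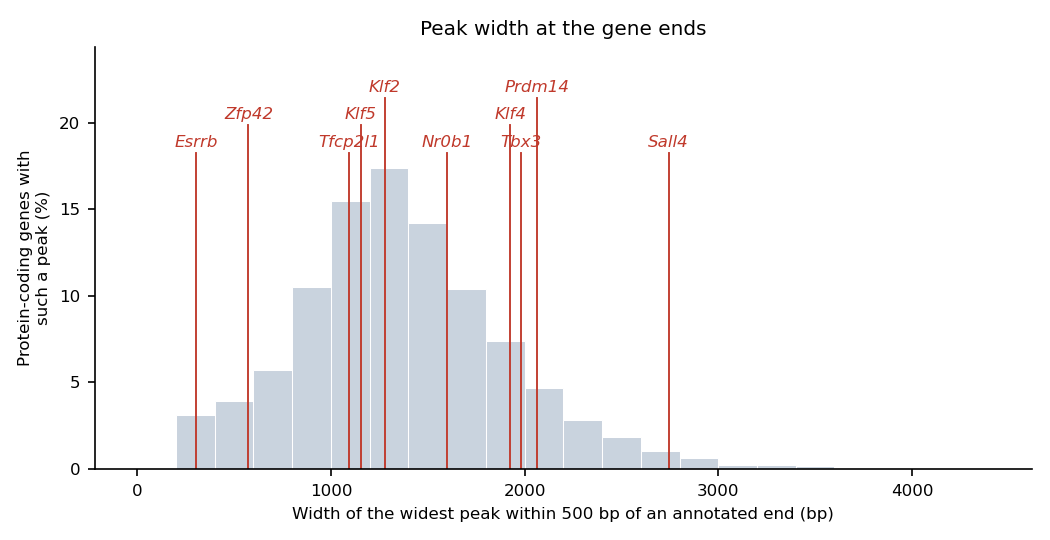
Bars give the share (%) of the 15550 protein-coding genes with a peak within 500 bp of an end, by the width (bp) of the widest such peak, in steps of 200 bp. Red lines mark the 10 naive factor genes, from 304 bp at Esrrb to 2743 bp at Sall4.

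Peaks at both annotated ends were found in 2 members, Klf5 and Zfp42, against 18.2% of protein-coding genes. Every member had at least 1 peak midpoint inside the gene, as did 76.2% of protein-coding genes. Of the 362 peaks, 12 lay at an end of the member itself and 59 elsewhere in its body. A further 19 lay at an end of another gene of any kind, 68 in the body of another protein-coding gene and 204 between genes. Most of each locus lies outside the gene by the rule that set it, so that most peaks do too is no result.

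Among the Krüppel-like factors, zinc finger activators that bind GC-rich and CACCC elements, Klf2 had the most crowded surroundings. Klf2 (chromosome 8, 72319062 to 72321654, 2.59 kb, on the plus strand) had a peak of 1277 bp that reached from 383 bp upstream of the start site to 893 bp downstream, and 34.5% of the gene lay in it. Its locus held 49 peaks, or 24.2 per 100 kb, and 99.7% of protein-coding genes had a lower density. Both sides were alike, with 23 peak midpoints upstream and 25 downstream. The widest peak of the locus was not at the promoter. It was a peak of 2516 bp between genes, 47.4 kb upstream (72270419 to 72272934), wider than 99.8% of all peaks that lay away from gene ends. The locus also has 3 other protein-coding genes, Eps15l1, Ap1m1 and Fam32a, with an end inside it, each carrying a peak of 1132 to 1439 bp, and 19 of the 49 peaks lay in bodies of such genes. A peak in a shared neighbourhood cannot be assigned to Klf2 from its position.

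Klf4, a target of LIF signalling and one of the reprogramming factors, stood alone and was open on 1 side. Klf4 (chromosome 4, 55527137 to 55532475, 5.34 kb, minus strand) had a peak of 1926 bp from 335 bp downstream to 1590 bp upstream of its start site, where the RNA gene Gm12506 also has an end. A second peak of 1756 bp lay in the gene body at 55530044 to 55531799, and the 2 together put 39.2% of the gene in open DNA. No other protein-coding gene had an end in the locus, so its 17 peaks, 8.28 per 100 kb, include none at a coding neighbour. Of protein-coding genes, 38.4% had a lower density. The promoter of Klf4 is shown as an example of a promoter that lay whole inside a wide peak. It is the window of 250 bases before to 50 after the start site (RefSeq, GRCm38.p6, chr4:55532426-55532725, minus strand), printed 5′ to 3′ with capitals on every match, on either strand, to the GC box GGGCGG, bound by SP and KLF proteins.
Klf4 promoter: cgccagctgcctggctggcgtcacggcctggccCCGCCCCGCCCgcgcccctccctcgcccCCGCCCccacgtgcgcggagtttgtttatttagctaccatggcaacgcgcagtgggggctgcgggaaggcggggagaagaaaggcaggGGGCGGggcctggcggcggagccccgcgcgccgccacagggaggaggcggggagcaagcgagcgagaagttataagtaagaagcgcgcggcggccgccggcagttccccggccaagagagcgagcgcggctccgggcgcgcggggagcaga
All 300 bases lay in the peak, 74.3% of them are G or C and 40 CpG pairs occur, against a median of 19 in promoters whose start site lay in a peak.

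Of the 16 peak midpoints in the flanks of Klf4, 14 lay downstream and 2 upstream. One of the 2 upstream was the promoter peak itself, and the other, of 867 bp, lay 35.3 kb away, so that 33.3 kb upstream of the promoter peak held no peak. As uneven a split or more was found in 1.31% of the 17517 protein-coding genes with at least 10 flank peaks, where the median larger side had 58.6%. In the other 9 members the larger side held 50% to 59.1%. This measure was chosen after the Klf4 values had been seen. Downstream, 5 peaks stood within 20 kb, at 46.4, 49.3, 51.5, 55.6 and 62.7 kb beyond the gene, and 3 of them were wide (1108, 1316 and 1638 bp). No 20 kb of the locus held more. The stretch from the peak 12.2 kb downstream of the gene to the promoter peak also held 5, so the densest window was not unique. Enhancers downstream of Klf4 are known to drive it in embryonic stem cells; whether these peaks are those elements was not tested.

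**Figure D2:**
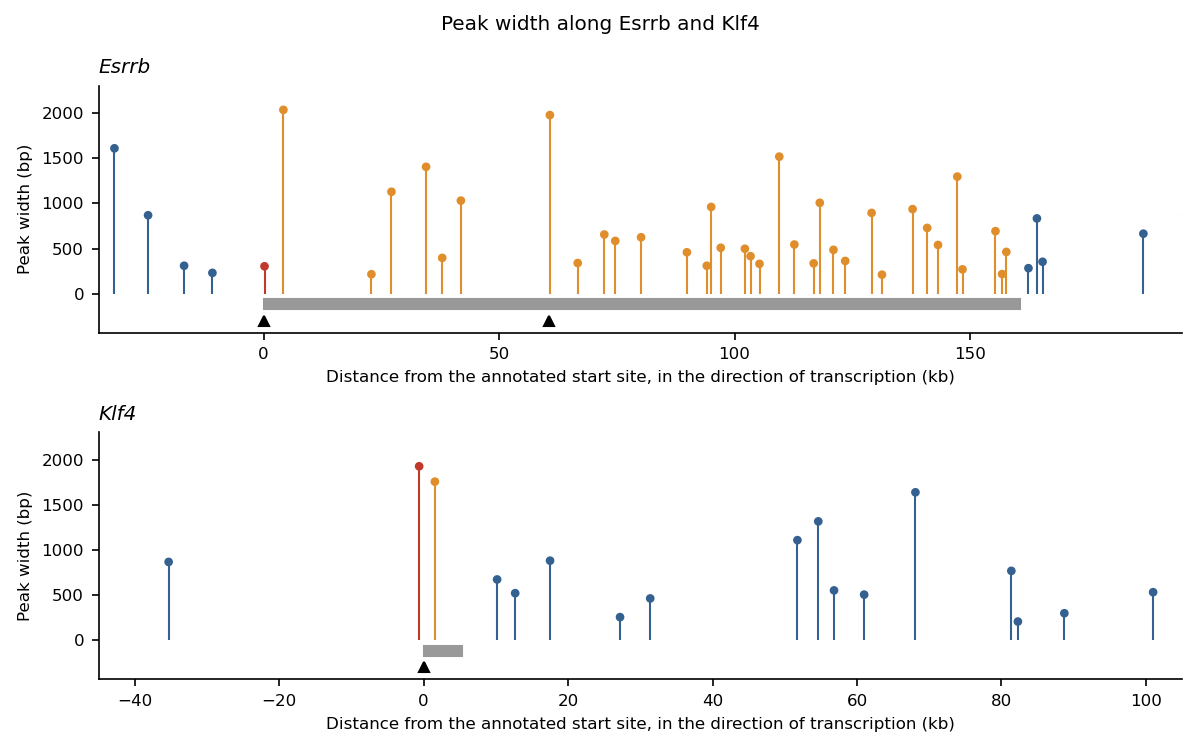
Each stem is a peak, placed by its midpoint (kb from the annotated start site in the direction of transcription) with its width (bp) as height, for Esrrb and Klf4; red marks a peak at an end of the gene, orange another peak in the gene, blue a peak outside, grey the gene body and triangles RefSeq start sites. At Esrrb the first start site has a peak of 304 bp and the internal one a peak of 1978 bp, and at Klf4 14 of the 16 flank peaks lie downstream.

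Klf5, which acts in embryonic stem cells and in the trophectoderm, had peaks at both ends. Klf5 (chromosome 14, 99298691 to 99313412, 14.7 kb) had one of 1154 bp across the lower-coordinate end and one of 547 bp across the higher-coordinate end. Inside the gene lay 2 further peaks, of 270 and 793 bp. Its locus held 31 peaks (14.4 per 100 kb), a density above that of 72.6% of protein-coding genes. The 3 widest lay between genes on the higher-coordinate side, with widths of 1909, 1814 and 1506 bp at 26.8, 41.5 and 53.3 kb beyond the gene. They were wider than the peak at either end of Klf5. Pibf1, the nearest protein-coding gene, has its end 43.8 kb away on the other side.

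Of the nuclear receptor genes, Esrrb had 54 peaks in its locus and Nr0b1 had 6. Esrrb, an orphan nuclear receptor that activates self-renewal genes, is the longest member (chromosome 12, 86361117 to 86521628, 161 kb, plus strand), and its body held 35 peaks. Of the 1870 protein-coding genes of over 100 and up to 300 kb, 97.4% had fewer, and the median there was 10 peaks. The density of the locus was 15.0 per 100 kb, and 34 of the 54 peaks lay in the gene body and away from its ends. Outside the gene Esrrb was ordinary, with 19 peak midpoints in the flanks against a median of 21 over protein-coding genes.

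The annotated start of Esrrb carried the narrowest end peak of the members, and an internal start a wide one. The peak near the first start stood at 86361175 to 86361478, 58 bp downstream of it, was 304 bp wide, and was shared with an end of the RNA gene Gm40483. Of the 15550 protein-coding genes with an end peak, 1.55% had a narrower one. RefSeq places a second promoter of Esrrb 60.5 kb inside the gene, and that start site lay in a peak of 1978 bp (86420924 to 86422901) that reached 720 bp upstream and 1257 bp downstream of it. The 2 promoter windows are shown because the peaks differ between them (GRCm38.p6, plus strand, chr12:86360867-86361166 and chr12:86421394-86421693, 5′ to 3′). Capitals mark matches on either strand to the KLF element CCACCC and the CCAAT box CCAAT.
Esrrb first promoter: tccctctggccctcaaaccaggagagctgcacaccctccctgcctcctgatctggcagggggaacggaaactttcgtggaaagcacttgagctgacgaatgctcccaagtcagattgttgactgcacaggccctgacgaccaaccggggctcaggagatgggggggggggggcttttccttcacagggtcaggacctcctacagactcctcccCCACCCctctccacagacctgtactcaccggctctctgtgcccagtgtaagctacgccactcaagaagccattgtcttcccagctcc
Esrrb internal promoter: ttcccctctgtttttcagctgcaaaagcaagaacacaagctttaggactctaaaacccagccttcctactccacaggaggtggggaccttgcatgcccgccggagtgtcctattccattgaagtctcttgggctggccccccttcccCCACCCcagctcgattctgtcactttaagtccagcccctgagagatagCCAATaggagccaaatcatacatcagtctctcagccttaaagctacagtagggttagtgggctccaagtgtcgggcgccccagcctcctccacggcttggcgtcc
No base of the first window and all 300 of the second lay in a peak. In base composition the 2 windows were close, with 60% and 55.3% G or C and 7 CpG pairs each. Each holds 1 CCACCC, and a CCAAT at position -55 from the start is found in the internal one. A match to letters does not show binding.

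Peaks inside Esrrb were wider before its internal start and denser after it. The 60.5 kb between the 2 starts held 7 peaks (11.6 per 100 kb) with a median width of 1031 bp, among them the widest of the locus, 2036 bp at 86364317 to 86366352. From the internal start to the end of the gene, 100 kb held 28 peaks (28.0 per 100 kb) with a median width of 524.5 bp. Each stretch had 4 peaks of at least 1000 bp. The split at the internal start was chosen after the positions had been seen.

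Nr0b1 encodes DAX1, an orphan receptor without the usual DNA-binding domain that acts mainly as a corepressor. It had a wide promoter peak and almost nothing around it. Nr0b1 (chromosome X, 86191775 to 86195947, 4.17 kb, plus strand) had a peak of 1601 bp from 270 bp upstream to 1330 bp downstream of its start site, and a second of 250 bp within the gene. These put 37.9% of the gene in open DNA. The other 4 peaks of its 6 lay 10.6 and 4.45 kb upstream (602 and 370 bp) and 28.0 and 60.2 kb downstream (406 and 277 bp), the last at an end of Mageb4, the nearest coding neighbour. None of these 4 reached 1000 bp, whereas every other member had at least 1 distal peak of that width.

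Nr0b1 lies on the chromosome with the fewest peaks per Mb of those that hold members, and its flanks had fewer peaks than the median gene there. Chromosome X had 31.9 peaks per Mb, whereas the chromosomes of the other members had 53.9 to 81.5. Genes on X had a median of 7 flank peaks, and 20.4% of them had fewer than the 4 of Nr0b1, compared with 4.99% of protein-coding genes genome-wide.

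Tfcp2l1, a factor of the CP2 family downstream of LIF, and Tbx3, a T-box factor, differed in where their peaks stood. Tfcp2l1 (chromosome 1, 118627923 to 118685168, 57.2 kb, plus strand) had a start peak of 1092 bp, the widest of its locus, from 371 bp upstream to 720 bp downstream. Its body held 10 peaks, and 84.9% of the 5063 protein-coding genes of over 30 and up to 100 kb had fewer. Peaks there were narrow, with a median width of 472 bp over the locus against 578 bp over all peaks. Apart from the promoter, 1 of its 31 distal peaks reached 1000 bp (1034 bp, at 20.3 kb inside the gene). Beyond the gene, a stretch of 39.7 kb held no peak, while the densest 20 kb of the locus, with 7 peaks, ended at the promoter.

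Tbx3 (chromosome 5, 119670534 to 119684724, 14.2 kb) had a peak of 1982 bp across the lower-coordinate end, shared with the antisense gene Tbx3os1. Inside the gene 2 peaks of 1192 and 1188 bp followed at 9.90 and 11.9 kb. No other protein-coding gene had an end within 100 kb, yet the locus held 43 peaks (20.1 per 100 kb), and 94.5% of protein-coding genes had a lower density. Its densest 20 kb, with 8 peaks, lay far out, at -98.9 to -81 kb from the lower-coordinate end, and included the widest distal peak of the locus (1252 bp, 81.7 kb away). Peaks of non-coding genes at Gm16063, AW549542 and Tbx3os2 accounted for 4 of the 43.

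The remaining members encode zinc finger proteins. Zfp42 encodes REX1, a marker of the naive state whose gene arose from a copy of Yy1. It had narrow end peaks and a busy neighbourhood. Zfp42 (chromosome 8, 43295067 to 43307009, 11.9 kb, minus strand) had a start peak of 574 bp, from 273 bp upstream to 300 bp downstream, and one of 541 bp just beyond the other end, 192 bp away from it. Of genes with an end peak, 6.51% had a narrower one. Its body held 4 peaks, and of the 6427 protein-coding genes of over 10 and up to 30 kb, 76.3% had fewer and 730 had more. With no coding neighbour, the locus held 36 peaks, and its widest, of 1836 bp, lay 79.9 kb downstream. A pair of 1079 and 1285 bp stood 12.3 and 14 kb upstream.

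The promoter of Zfp42 lay inside its narrow peak and is shown for the elements it holds (RefSeq, chr8:43306960-43307259, minus strand, 5′ to 3′). Capitals mark matches on either strand to the octamer ATTTGCAT, bound by the POU5F1 protein, to CCACCC, to GGGCGG and to CCAAT.
Zfp42 promoter: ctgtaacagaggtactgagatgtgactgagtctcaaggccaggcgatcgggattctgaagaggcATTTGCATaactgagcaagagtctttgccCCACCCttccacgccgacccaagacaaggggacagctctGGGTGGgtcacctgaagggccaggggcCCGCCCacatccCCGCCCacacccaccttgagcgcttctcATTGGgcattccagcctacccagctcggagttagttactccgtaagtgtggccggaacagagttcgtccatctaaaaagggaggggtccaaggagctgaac
The octamer starts at position -186 from the start site, and it was found in no other member promoter of the 7 in the RefSeq table and in 1.74% of all 32851 promoters. CCACCC occurs in both orientations, at -157 and -118, followed by 2 GC boxes and a CCAAT box.

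Prdm14, a PR-domain protein that restrains FGF signalling and DNA methylation in naive cells, had wide peaks at a distance as well as at the gene. Prdm14 (chromosome 1, 13113428 to 13127163, 13.7 kb) had a peak of 2062 bp across the higher-coordinate end, wider than that of 90% of genes with one, and a peak of 1454 bp inside. The widest peak of its locus, 2321 bp, lay between genes 18.3 kb beyond the lower-coordinate end (13094012 to 13096332) and was wider than 99.7% of peaks away from gene ends. Of its 35 distal peaks, 9 reached 1000 bp, as did 9 of 52 at Esrrb. The locus had 38 peaks (17.8 per 100 kb) and a median width of 712 bp, the highest of the members. Its densest 20 kb held 7 peaks over 6929 bp of open DNA, ran from the gene's higher-coordinate end outwards, and included a peak of 458 bp at the neighbour Ncoa2.

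Sall4, a spalt-like factor needed for self-renewal, had the widest end peak and the densest locus. Sall4 (chromosome 2, 168748332 to 168767201, 18.9 kb) had a peak of 2743 bp (168764635 to 168767377) at the higher-coordinate end, where Gm14261 also has an end, and 98.4% of genes with an end peak had a narrower one. The body held 6 peaks, and 94.8% of genes of 10 to 30 kb had fewer. The locus held 56 peaks, or 25.6 per 100 kb, a density above that of 99.9% of protein-coding genes, with 25 midpoints on each side. Most of its distal peaks were narrow: 4 of 54 reached 1000 bp, and the widest had 1377 bp. The longest gap between neighbouring peaks was 9.89 kb, the shortest such maximum of the members, which elsewhere ran to 53.0 kb at Esrrb. Stretches between the outermost peaks and the edges of a locus were not counted as gaps. At Nr0b1 such a stretch was longer than any gap, as its outermost upstream peak lay 10.6 kb from the gene. Atp9a, whose end lies 5.96 kb away, is the body in which 23 of the peaks lay.

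**Figure D3:**
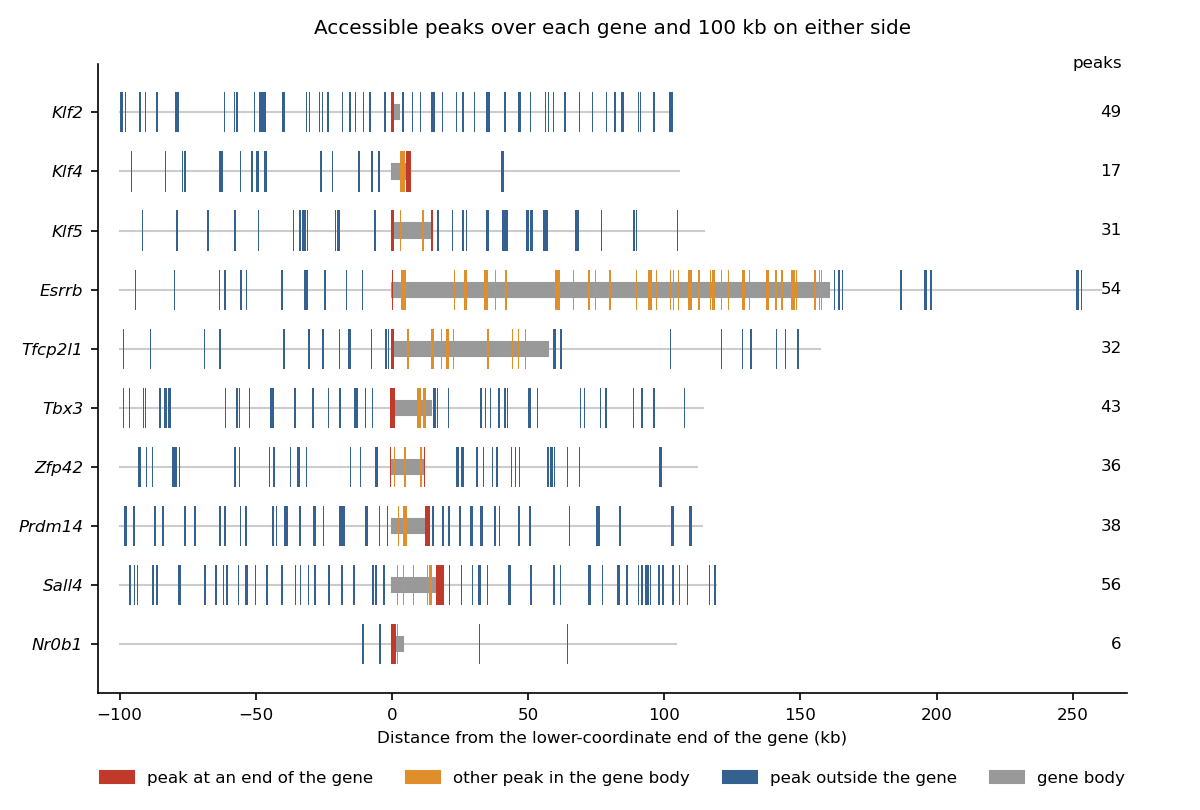
Each row is a gene with 100 kb on either side, on an axis of distance (kb) from its lower-coordinate end; grey bars are gene bodies, red marks peaks at its ends, orange other peaks in the body and blue peaks outside, drawn at their width or a minimum of 0.45 kb, with the number of peaks at the right. The rows run from 6 peaks at Nr0b1 to 56 at Sall4, and the peaks of Klf4 lie mostly on 1 side.

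Over the 10 loci, the count of peaks had a median of 37 (range 6 to 56), against 25 over the same windows at all protein-coding genes and 29 at those with an open end. Per 100 kb, which allows for gene length, the medians were 16.0, 10.3 and 12.0. In 8 of the 10 members the density was above the median of all protein-coding genes, with Klf4 and Nr0b1 below it. In the flanks alone the members had a median of 29.5 peaks, and values in order were 4 at Nr0b1, 16 at Klf4, 19 at Esrrb, 22 at Tfcp2l1, 27 at Klf5, 32 at Zfp42, 35 at Prdm14, 40 at Tbx3, 48 at Klf2 and 50 at Sall4. Against the median of its own chromosome, the flank count was higher in 7 members and lower in Klf4, Esrrb and Nr0b1. Zfp42 and Klf2 share chromosome 8, whose genes had the highest median of these chromosomes, 29.

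The mean number of peaks was highest next to the genes, though not in every member. Within 25 kb on both sides the members had a mean of 8.70 peaks and all protein-coding genes 5.56. From 25 to 50 kb the means were 7.30 and 5.28, and the median over the members was 8.5, as it was within 25 kb. From 50 to 75 kb the means were 6.40 and 5.14, and from 75 to 100 kb 6.90 and 5.05. Genes with an open end had 6.48 peaks within 25 kb and 5.70 from 75 to 100 kb. Klf5 and Zfp42 had more peaks from 25 to 50 kb (10 and 12) than within 25 kb (8 and 9), and Sall4 had the most, 15, from 50 to 75 kb. Single members varied widely, from 2 (Nr0b1) to 14 (Klf2) within 25 kb and from 0 to 14 (Sall4) beyond 75 kb. The densest 20 kb of a locus had a median of 7 peaks in the members (4 at Nr0b1 to 9 at Sall4) and 5 over protein-coding genes.

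**Figure D4:**
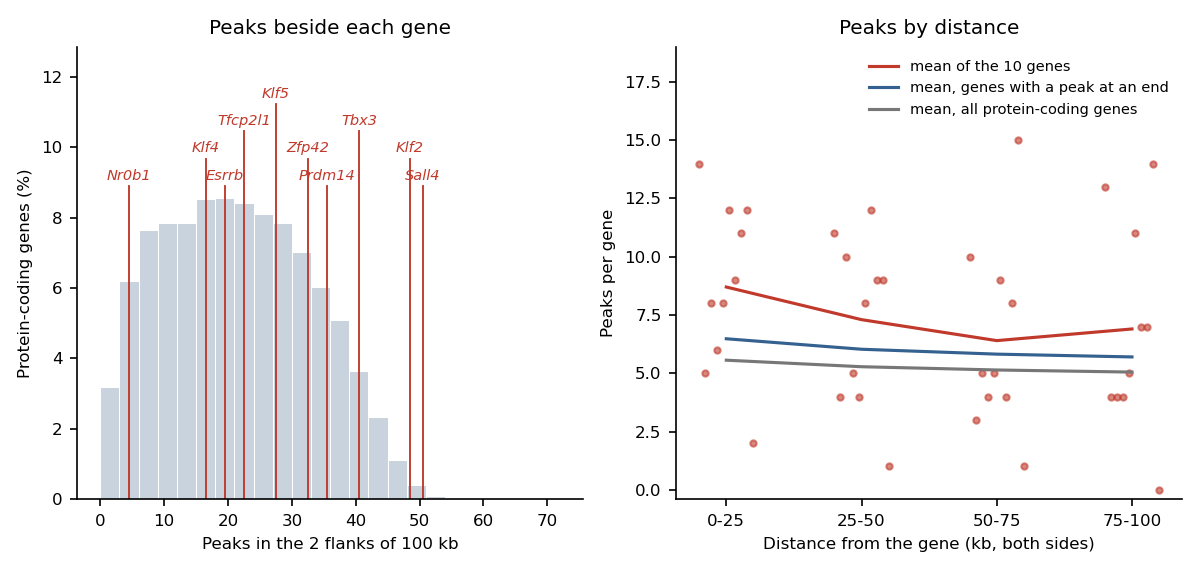
Left, bars give the share (%) of 21774 protein-coding genes by the number of peak midpoints in both flanks of 100 kb, in steps of 3, and red lines mark the members, from 4 at Nr0b1 to 50 at Sall4. Right, peaks per gene by distance (kb, both sides together), with points for the members and lines for means, where the mean of the members within 25 kb is 8.70 against 5.56 for all protein-coding genes.

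Inside the genes, every member exceeded the median density of protein-coding genes. Peak midpoints per 100 kb of gene body had a median of 24.5 in the members, from 17.5 at Tfcp2l1 to 47.9 at Nr0b1, against 9.53 over all protein-coding genes and 12.8 over those with an open end. Density is inflated in short genes, where the promoter peak fills much of the body, so genes of like length are the nearer comparison. Counted that way, Klf2 and Klf4 were at the median of their classes: genes of 1778 to 3162 bp and of 3162 to 5623 bp had a median of 1 peak, and so did these members. Nr0b1, in the latter class, had 2, its 95th percentile. Genes of 10000 to 17782 bp had a median of 2, an upper quartile of 3 and a 95th percentile of 4. Tbx3 and Prdm14 had 3 peaks each, at that upper quartile, and Klf5 and Zfp42 had 4 each, at that 95th percentile. Sall4 had 6 in a class with a median of 3 and a 95th percentile of 6. Tfcp2l1, with 10, was at the upper quartile of genes of 56234 to 100000 bp (median 7), though at 57.2 kb it lies near the lower bound of that class. Esrrb, with 35, was above the 95th percentile of its class, 26. With 2 kb removed at both ends, the 9 members with any gene body left had a median of 18.7 per 100 kb against 6.66. Klf4 and Nr0b1 had no peak midpoint left, but these genes span 5.34 and 4.17 kb, so little of either remained to hold one. At Klf4 the peak of 1756 bp still reached into the part that remained, with its midpoint outside.

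**Figure D5:**
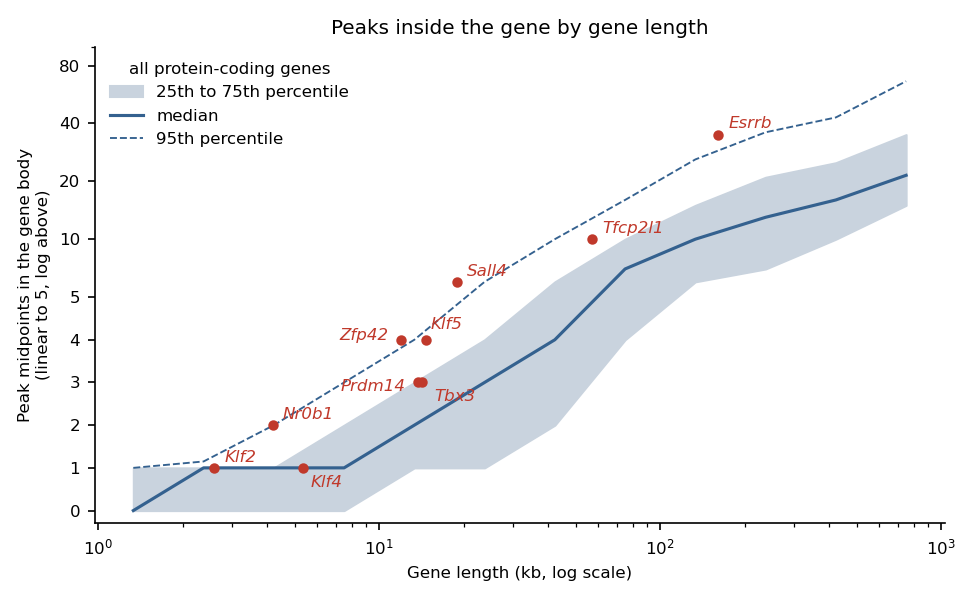
Peak midpoints in the gene body (axis linear to 5 and logarithmic above) against gene length (kb, logarithmic), with the median, the middle 50% and the 95th percentile of protein-coding genes in 12 length classes, and red points for the members. Esrrb lies above the 95th percentile of its class. Sall4, Klf5, Zfp42 and Nr0b1 lie at that of theirs, and Klf2 and Klf4 lie at 1 peak, the median of theirs.

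Away from gene ends, the width of the peaks did not set these loci apart from the genome. There, 331 member peaks had a median width of 532 bp and 140626 peaks genome-wide 534 bp, and 14.5% and 14.8% of them reached 1000 bp. At an end of any gene, the 31 peaks of these loci were narrower, with a median of 841 bp against 1055 bp over 25118 such peaks genome-wide. Of these, 48.4% and 53.4% reached 1000 bp. The share of member-locus peaks away from every gene end was 91.4% (331 of 362, 95% Wilson interval 88.1 to 93.9, which covers counting error only), against 84.8% of all peaks. Peaks of 1 locus share their surroundings and are not independent. In 5 of the 10 members (Klf4, Tfcp2l1, Tbx3, Sall4 and Nr0b1) the widest peak of the locus was at the gene's own end. The same share over all protein-coding genes was not counted, so whether this is usual is not known.

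RefSeq promoter windows were found for 6 members, 7 windows in all: Klf2, Klf4, Esrrb (2 windows), Tfcp2l1, Zfp42 and Nr0b1. The start site lay in a peak in 6 of the 7, and the same 6 windows lay whole inside it. Over the promoters of protein-coding genes these shares were 66.1% and 58.9%. CCACCC, the element of the KLF family, was found in 5 of the 7 (all but Klf4 and Tfcp2l1), in 31.5% of all promoters and in 38.0% of the 17341 promoters with the start site in a peak. GGGCGG was found in 3 of the 7 (Klf2, Klf4 and Zfp42), in 35.7% of all and in 61.2% of the open promoters. The TATA box TATAAA was found at Tfcp2l1 and Nr0b1, at positions -28 and -32, in 13.6% of all promoters and in 6.65% of the open promoters.

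Several elements of other network factors had no match in these windows. No member promoter held the ESRRB site AAGGTCA (4.72% of all promoters), the STAT site TTCCNGGAA (1.15%), the T-box element GGTGTGA (3.98%), the YY1 and ZFP42 element GCCATNTT (6.05%) or the PRDM14 element GGTCTCTAA (0.256%). A loose form of the paired TFCP2L1 site matched 4 of the 7, 29.5% of all promoters and 42.9% of the open promoters. At Klf2 it overlapped the CCACCC match. Both strands were searched. The absence of these letters from 7 windows says nothing of the factors, and the distal peaks were not searched.

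Other genes of the same network, and genes of the state that follows it, also had open ends. Of 12 further genes linked to naive cells (among them Nanog, Gbx2, Stat3 and Mybl2), 11 had a peak at an end, and Nr5a2 had its nearest 2.00 kb away. All 12 genes of formative or primed cells, including Otx2, Pou3f1, Fgf5 and Dnmt3b, also had one, with 235, 2801, 1115 and 1773 bp. The median of the widest end peak was 1535 bp in the first list and 1779 bp in the second, against 1439 bp in the members. Median flank counts were 29, 28 and 29.5 peaks. The lists were not tested against each other.

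The relatives of the members, 54 genes of the same families, had a peak at an end in 47 cases (87.0%). Their medians were 20 flank peaks and 14.5 peaks per 100 kb of gene body, where the members had 29.5 and 24.5. The body densities were not matched for gene length, which reached 606376 bp in the relatives (Esrrg) and 160512 bp in the members (Esrrb). Among the relatives without a peak at an end were Klf1, Klf8, Klf15 and Tbx19, with the nearest peak at 0.516, 7.87, 0.603 and 4.88 kb. Among close relatives, Esrrg, of 606376 bp, held 15 peaks in its body, the lower quartile of genes of 562341 to 1000000 bp, whose median was 21.5, while Esrrb exceeded the 95th percentile of its own class. In the flanks Esrrg had 3 peaks, Esrrb 19 and Esrra 40. Tfcp2 had 8 body peaks in a gene of nearly the length of Tfcp2l1, which had 10.

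Other pairs were closer or ran the other way. Tbx2 had an end peak of 2077 bp and 26 flank peaks, where Tbx3 had 1982 bp and 40. Sall1 had 3352 bp and 37, where Sall4 had 2743 bp and 50. Yy1 had an end peak of 1953 bp, far wider than the 574 bp of Zfp42, but 25 flank peaks to its 32. Nr0b2, on chromosome 4, had an end peak of 779 bp against 1601 bp at Nr0b1, but 42 flank peaks against 4.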

How the data were processed

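ATAC-seq peaks of 18 libraries, 3 at each of 6 times, were used as deposited. Per the submitters' processing notes, the tools were MACS2 2.2.7.1, Trimmomatic 0.36 and Bowtie2 2.4.2, and the builds named are GRCm38 and mm10, with no role or order given. The authors deposited merged peak positions without counts or scores; the merging, the threshold and any duplicate or blacklist filter are not given in the sources used here. Depth and precision per library are unknown, no comparison of times was run, and the planned edgeR test was not run because there are no counts. Columns of per-sample values left unused numbered 0.

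Of 166066 peaks, 165744 lie on assembled chromosomes and were used. Genes came from RefSeq GRCm38.p6, without 348 genes whose coordinates are those of scaffolds. An end had a peak where any peak came within 500 bp of the annotated start or end. Start sites and strands came from the RefSeq promoter table, which matched 6 members; for the others the ends are named by coordinate. Body, flank and densest-window counts used peak midpoints. "Distal" means more than 500 bp from any annotated gene end.

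The members, lists, motifs and alternatives were chosen with earlier results of these data known. All 10 members are named; of other lists, genes without an end peak (where over 5, the first 4 with and without), the first 4 otherwise, and 7 close relatives. Peaks and genes named beyond this, the length classes and the distance bins were chosen after their values were seen. Values stand beside those of all protein-coding genes, with no test. Counting was tested on simulated peaks, with 0 differences from a direct count over 141 genes of chromosome 19. Python 3.11.15, numpy 2.4.6, pandas 2.3.3 and scipy 1.17.1 were used.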

Additional observations from a re-analysis of the deposited data

How the results depend on the processing

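No paired analysis was possible because the peak list carries no library, and no replicate could be left out. All 10 members kept an end peak with windows of 250 and 2000 bp and with an overlap of at least 200 bp. When peaks of up to 578 bp, the median width, were left out, 8 did (66.7% of protein-coding genes), without Esrrb and Zfp42. Members with peaks at both ends numbered 8 with windows of 2000 bp (43.7% of protein-coding genes) and 0 with wide peaks alone (12.1%). The median locus count was 23 with flanks of 50 kb (14 over protein-coding genes), 53 with 200 kb (44) and 17.5 with wide peaks alone (13). The densest window held a median of 13.5 peaks when set to 50 kb (9 over protein-coding genes). Peaks away from gene ends made up 81.8% at more than 2000 bp (75.2% of all peaks) and 94.8% when ends of protein-coding genes alone were used (89.5%). Other settings stayed within 1.5 times. Without depth, an absent peak is not shown to be closed chromatin.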
